A study of Mus musculus with 4 samples.

Results

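Zbtb16, Il22, Cd163l1 and Klrb1c are 4 of the 32285 genes in the deposited RNA table. They were chosen as genes of innate-like T cells that were higher in CD4 cells of cyclophosphamide-treated transplant recipients. Their RNA values in that contrast, and their spread over the deposited clusters, are therefore given as a description. PT-Cy recipients were C57BL/6 mice transplanted from C3H.SW donors with 5000000 marrow cells plus 500000 T cells each of the CD4 and CD8 lineages, followed by 50 mg/kg cyclophosphamide on days 3 and 4. The alloBMT group had the same transplant without cyclophosphamide. T cells were sorted from bone marrow on day 14 and pooled over 4 mice in each group. RNA and open chromatin were read from the same cells, with 1 RNA and 1 ATAC library per group. No difference has a replicate check, so no test was run, and all 95% intervals cover counting error only. Whether a cell came from donor or host was not tested.

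Innate-like T cells acquire effector functions during development and respond quickly to cytokines and to non-classical antigens. Zbtb16 encodes PLZF, the transcription factor that directs natural killer T cells and related lineages towards this state. Il22 encodes a cytokine of type 3 lymphocytes that acts on epithelial barriers. Cd163l1 encodes a scavenger receptor known as SCART1, found on IL-17-producing gamma delta T cells. Klrb1c encodes the receptor NKR-P1C, the NK1.1 antigen of C57BL/6 natural killer and natural killer T cells.

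The deposited CD4 set held 284 PT-Cy and 926 alloBMT cells, with 1264107 and 3027967 RNA counts of unique molecules (UMIs). Median UMIs per cell were 3889 in PT-Cy and 2750 in alloBMT. Every cell of the set held a Cd4 UMI and none held a Cd8a UMI, so these 2 genes describe how the set was made. No cell barcode was shared between the libraries in the CD4 set. Deposited cluster 2 held 238 of the PT-Cy and 42 of the alloBMT cells. The other PT-Cy cells were 4 in cluster 0, 11 in cluster 3 and 31 in cluster 4, while alloBMT had 374, 320, 156 and 34 cells in clusters 0, 1, 3 and 4.

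The 250 bases before the RefSeq start of Klrb1c are printed because the data bear on them: no deposited peak overlapped them, and the nearest peak lay 0.776 kb away. The capitals mark a RUNX core motif, which 14.0% of 32851 RefSeq windows of this length held on either strand. The windows were searched on both strands for the AHR core GCGTG, the RUNX core TGTGGT, the AP-1 motif TGANTCA and the T-box core GGTGTGA, and the RUNX core was the 1 match here. The sequence is from RefSeq, build GRCm38.p6, chr6:128788642-128788891, minus strand, given 5′ to 3′.
Klrb1c: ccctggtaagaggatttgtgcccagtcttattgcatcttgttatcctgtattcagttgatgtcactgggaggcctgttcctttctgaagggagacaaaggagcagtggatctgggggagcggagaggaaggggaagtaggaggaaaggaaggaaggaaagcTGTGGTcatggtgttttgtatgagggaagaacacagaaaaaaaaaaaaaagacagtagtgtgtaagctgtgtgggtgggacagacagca
The RefSeq windows of Il22 and Cd163l1 lie inside the annotated genes and were not used as promoters here.

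Zbtb16 had 72 UMIs in 26 of 284 PT-Cy cells, against 21 UMIs in 12 of 926 alloBMT cells. Those counts are 57.0 CPM (UMIs per 1000000 UMIs) in PT-Cy and 6.94 CPM in alloBMT, a log2 ratio of 3.04 (95% interval 2.32 to 3.81). In the PT-Cy cells that held it, 12 had 1 UMI, 3 had 2, 7 had 3, 1 had 5, 2 had 6 and 1 had 16. So 12 of the 26 cells rested on 1 UMI, and the cell with 16 supplied 22.2% of the PT-Cy total.

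Il22 had 15 UMIs in 9 PT-Cy cells, against 1 UMI in 1 alloBMT cell, a log2 ratio of 5.17 (2.47 to 10.6). Cd163l1 had 13 UMIs in 6 PT-Cy cells, against 1 UMI in 1 alloBMT cell, a log2 ratio of 4.96 (2.23 to 10.4). Klrb1c had 32 UMIs in 18 PT-Cy cells, against 1 UMI in 1 alloBMT cell, a log2 ratio of 6.26 (3.68 to 11.6). The wide intervals follow from the single alloBMT UMI in each of these 3 genes. None of the 4 genes reached the 100 UMIs over both libraries that the size rule asks for, 2 reached 20 and 4 reached 10. All 4 were at least 2-fold higher at the minimum of 10, where 11.2% of 11481 genes were, and the genes were chosen on that contrast. At the minimum of 20, 9.01% of 10122 genes were, and at 100, 4.93% of 6285. Those 310 genes stood beside 181 that were at least 2-fold lower, and with edgeR's TMM scaling the numbers were 234 higher and 260 lower. Iltifb, a near-identical copy of Il22 in C57BL/6 mice, had 0 UMIs, and RNA from the 2 copies cannot be told apart.

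Most of the PT-Cy UMIs lay in deposited cluster 2. Zbtb16 had 68 UMIs in 24 of 238 PT-Cy cells of cluster 2 (10.1%, 6.57 to 14.6), against 10 UMIs in 4 of 42 alloBMT cells of that cluster (9.52%, 2.66 to 22.6). These are 64.96 CPM in PT-Cy and 53.5 CPM in alloBMT, a log2 ratio of 0.28 (-0.68 to 1.40), so a difference between the libraries in Zbtb16 was not detectable within cluster 2. The remaining alloBMT cells with Zbtb16 were 5 of 320 in cluster 1 and 3 of 156 in cluster 3, and the remaining PT-Cy cells were 1 of 4 in cluster 0 and 1 of 11 in cluster 3.

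All 9 PT-Cy cells with Il22 and all 6 with Cd163l1 were in cluster 2, as were 17 of the 18 with Klrb1c. The other Klrb1c cell was 1 of 31 in cluster 4. The 42 alloBMT cells of cluster 2 held no UMI of Il22, Cd163l1 or Klrb1c, which allows a share of up to 7.14% of cells by the floor of 3 cells and up to 8.41% by the exact 95% interval. The PT-Cy shares in cluster 2, at 3.78% for Il22, 2.52% for Cd163l1 and 7.14% for Klrb1c, lay within that interval. A difference in shares within cluster 2 was therefore not detectable for these 3 genes. In CPM, the 31 PT-Cy UMIs of Klrb1c in cluster 2 set against the floor of 3 UMIs gave a log2 ratio of at least 0.89. That bound rests on the floor and carries no 95% interval. The single alloBMT UMIs lay in cluster 0 for Il22, cluster 3 for Cd163l1 and cluster 1 for Klrb1c.

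**Figure D1:**
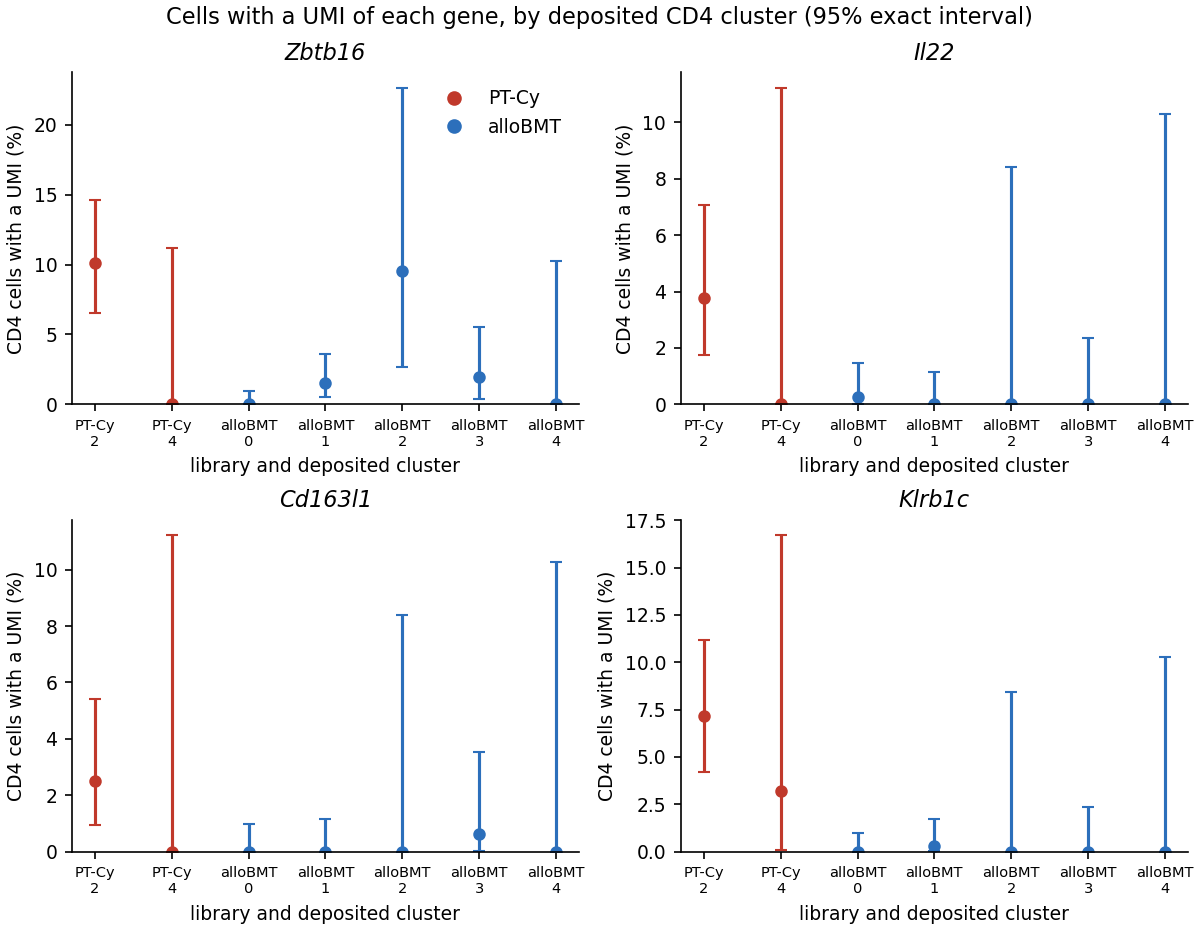
Share of CD4 cells with at least 1 UMI (percent, vertical axis) for each gene, by library and deposited cluster (horizontal axis); points are shares, bars are exact 95% intervals, and clusters with under 30 cells are left out. Zbtb16 was at 10.1% in PT-Cy cluster 2 and 9.52% in alloBMT cluster 2, while the other 3 genes had no UMI in alloBMT cluster 2.

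S100a9, a neutrophil gene that T cells lack, was used as a measure of RNA from other cells. It had a UMI in 42 of 284 PT-Cy cells (14.8%) and 29 of 926 alloBMT cells (3.13%), at the median depths given above. The PT-Cy shares of all 4 genes, from 2.11% to 9.15%, lay below the S100a9 share in PT-Cy, and the alloBMT shares, from 0.108% to 1.30%, lay below that in alloBMT, so the shares by themselves do not separate expression from background. Other genes of absent cell types lay on both sides of the members: Hbb-bs, a red cell globin, was in 74.6% of PT-Cy and 29.9% of alloBMT cells, and Cd79a, a B cell gene, in 0.352% and 0.216%. Within cluster 2, S100a9 had 32 of 238 PT-Cy and 1 of 42 alloBMT cells. Among alloBMT clusters, S100a9 was in 1 of 42 cells of cluster 2 and 12 of 374 of cluster 0, while Zbtb16 was in 4 of 42 and 0 of 374. The part of stray RNA in the library difference was not tested. When each cell was thinned to 1981 UMIs, 25 PT-Cy and 96 alloBMT cells were too shallow and were left out. Zbtb16 then stood at 15 of 259 PT-Cy cells (5.79%) and 7 of 830 alloBMT cells (0.843%), and Klrb1c at 9 of 259 PT-Cy cells (3.47%) and 0 of 830 alloBMT cells, which allows up to 0.361% by the floor of 3 cells (0.443% by the exact interval). S100a9 was at 8.88% in PT-Cy and 2.17% in alloBMT at that depth.

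The PT-Cy cell with 16 Zbtb16 UMIs also held the most S100a9 UMIs of the set. That cell had 4 Klrb1c, 30 S100a9, 33 Ngp, 13 S100a8 and 10 Lyz2 UMIs, beside 2 Cd3e and 3 Trac UMIs, in 6576 UMIs in all. It thus held RNA of both neutrophil and T cell genes. Its Csf1r, Cd14 and Elane counts were 0. Without it the log2 ratio was 2.68 for Zbtb16 and 6.08 for Klrb1c.

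In PT-Cy, 11 of 284 CD4 cells held UMIs of 2 or more of the genes (3.87%, 1.95 to 6.82), against 0 of 926 alloBMT cells, which allows a share of up to 0.324% by the floor of 3 cells (0.398% by the exact interval). All 11 were in cluster 2, where the comparison was 11 of 238 PT-Cy cells against 0 of 42 alloBMT cells, and with the limits given above for 0 of 42 a difference was not detectable. Of the 11, 8 held Zbtb16 with Klrb1c, 2 held Zbtb16 with Il22 and 1 held Il22 with Klrb1c. None of the 6 cells with Cd163l1 held another of the genes, and no cell held 3.

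Klrb1c was found in 8 of the 26 PT-Cy cells with Zbtb16 (30.8%, 14.3 to 51.8), against 10 of the 258 without it (3.88%, 1.87 to 7.01). The cells with Zbtb16 were deeper, at a median of 6222.5 UMIs, against 3727.5 in the cells without it. With every cell at 1981 UMIs the shares were 1 of 15 cells with Zbtb16 (6.67%, 0.169 to 31.9) and 8 of 244 without it (3.28%, 1.43 to 6.36), a difference that was not detectable. At the same depth the cells holding 2 or more genes numbered 2 of 259 in PT-Cy, and at 2355 UMIs they numbered 4 of 238.

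The lists of other cell types and programmes were first compared over all CD4 cells of each library. Of these, 48 of 284 PT-Cy and 15 of 926 alloBMT cells held any of the 4 genes. The list ratios thus describe the libraries and not the cells that held the 4 genes. Members of a list were counted when they had at least 20 UMIs over both libraries. Over all 10122 genes at that minimum the median log2 ratio was 0.06, 9.01% were at least 2-fold higher in PT-Cy and 4.68% were at least 2-fold lower. Of 11 measured type 3 genes, 8 were at least 2-fold higher and 1 was lower, with a median log2 ratio of 3.48. The lower gene was Stat3, at -1.20 (-1.36 to -1.04), and Maf was at -0.67 (-0.82 to -0.52). Both were named after their values were seen. Summed over the list without Il22, PT-Cy had 1439 CPM and alloBMT had 1537 CPM. Il1r1, the interleukin-1 receptor, had 36 UMIs in PT-Cy and 0 in alloBMT, and Il17re, a receptor of the interleukin-17 family, had 22 and 0. Il23r, the interleukin-23 receptor, had 48 UMIs in PT-Cy and 7 in alloBMT, a log2 ratio of 4.04 (2.89 to 5.43). Tmem176b, a membrane channel gene, had 49 and 9, a log2 ratio of 3.71 (2.66 to 4.92).

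Within cluster 2 the alloBMT cells held 0 UMIs of Il23r, Il17re and Il1r1. The PT-Cy cells there held 48, 20 and 34 UMIs, and against the floor of 3 UMIs the log2 ratios were at least 1.52, 0.25 and 1.02 in that order. Only lower bounds could thus be given for these 3 genes in cluster 2. Tmem176b had 44 UMIs in PT-Cy and 3 in alloBMT in that cluster, a log2 ratio of 1.39 (-0.25 to 3.72), so its interval there included no difference. Stat3 was lower in PT-Cy in cluster 2, at -0.80 (-1.13 to -0.45), as was Maf, at -0.39 (-0.75 to -0.02). Rora was higher there, at 0.64 (0.26 to 1.05).

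In the PLZF and natural killer T cell list, of 13 measured members beside Zbtb16, 0 were at least 2-fold higher, 1 was lower, and the median was -0.05. Klrd1, a natural killer receptor chain, was at a log2 ratio of -1.20 (-1.61 to -0.82), and Sh2d1a, the signalling adaptor SAP, was at -0.99 (-1.22 to -0.77), though within cluster 2 Sh2d1a was at -0.12 (-0.66 to 0.45). Icos, a costimulatory receptor, was at 0.96 (0.79 to 1.14), and Cd44, an activation marker, at 0.91 (0.73 to 1.08). Of 8 measured genes of the natural killer list beside Klrb1c, 0 were at least 2-fold higher and 4 were lower, with a median of -1.03. These were Klrc1 at -2.40, Klrc2 at -1.36, the transcription factor Eomes at -1.27 and Klrd1 at -1.20, which with Klrk1 stands in both lists.

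Gamma delta T cell genes were sparse: of 4 measured, 1 was at least 2-fold higher and 2 were lower, with a median of -0.57. Trdc, the delta chain constant segment, had 8 UMIs in PT-Cy and 21 in alloBMT, and none in the PT-Cy cells holding any of the 4 genes. Tcrg-C4, a gamma chain constant segment, was in 5 of 26 cells with Zbtb16 (19.2%, 6.55 to 39.4), against 8 of the 236 PT-Cy cells with none of the 4 genes (3.39%, 1.47 to 6.57), and the intervals overlapped narrowly. The cells with Zbtb16 were deeper, at a median of 6222.5 UMIs against 3703.5. Tcrg-C2 had 3 UMIs in 1 cell with Cd163l1 and 1 UMI in 1 cell with Zbtb16, and was in 14 of the 236 (5.93%). The gene 5830411N06Rik, with 16 PT-Cy and 0 alloBMT UMIs, was below the minimum. It was in 2 of 6 cells with Cd163l1, in 1 cell with Zbtb16, which held 7 of its UMIs, and in 5 of the 236. These 3 were named after their values were seen. Of 7 alpha beta T cell genes 0 were past 2-fold, and the median was -0.43. Cd3e was read in 24 of 26 cells with Zbtb16, 9 of 9 with Il22, 5 of 6 with Cd163l1 and 18 of 18 with Klrb1c, and Trac in 20, 8, 6 and 13 of them. The CD8 list had 1 measured gene, Cd8b1, at a log2 ratio of 0.39, and the B cell list had 0 measured genes of 5.

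All 4 measured myeloid genes passed 2-fold upwards in PT-Cy (median 2.95), among them Ngp at 4.09 and Lyz2 at 3.46. The cell with 16 Zbtb16 UMIs supplied 33 of the 57 PT-Cy Ngp UMIs, and without it Ngp was at 2.85 (1.65 to 4.22), Lyz2 at 3.12 (2.08 to 4.29) and the median of the 4 genes at 2.35. All 4 measured red cell genes were higher too, with a median of 2.14. Of the myeloid genes below the minimum, Cd14 was at 0 in both libraries, Csf1r had 1 PT-Cy and 2 alloBMT UMIs, and Elane had 2 and 3. All 5 division genes passed 2-fold in that direction, and their median was 2.46. Within cluster 2 none of the 5 was higher beyond its interval: Mki67 was at -0.08 (-0.32 to 0.17), Cdk1 at 0.11, Cenpf at 0.37 and Ccnb1 at 1.28 (-0.01 to 2.95), while Top2a was lower in PT-Cy at -0.36 (-0.58 to -0.14). The part of these cells and of division in the member genes' ratios was not tested.

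**Figure D2:**
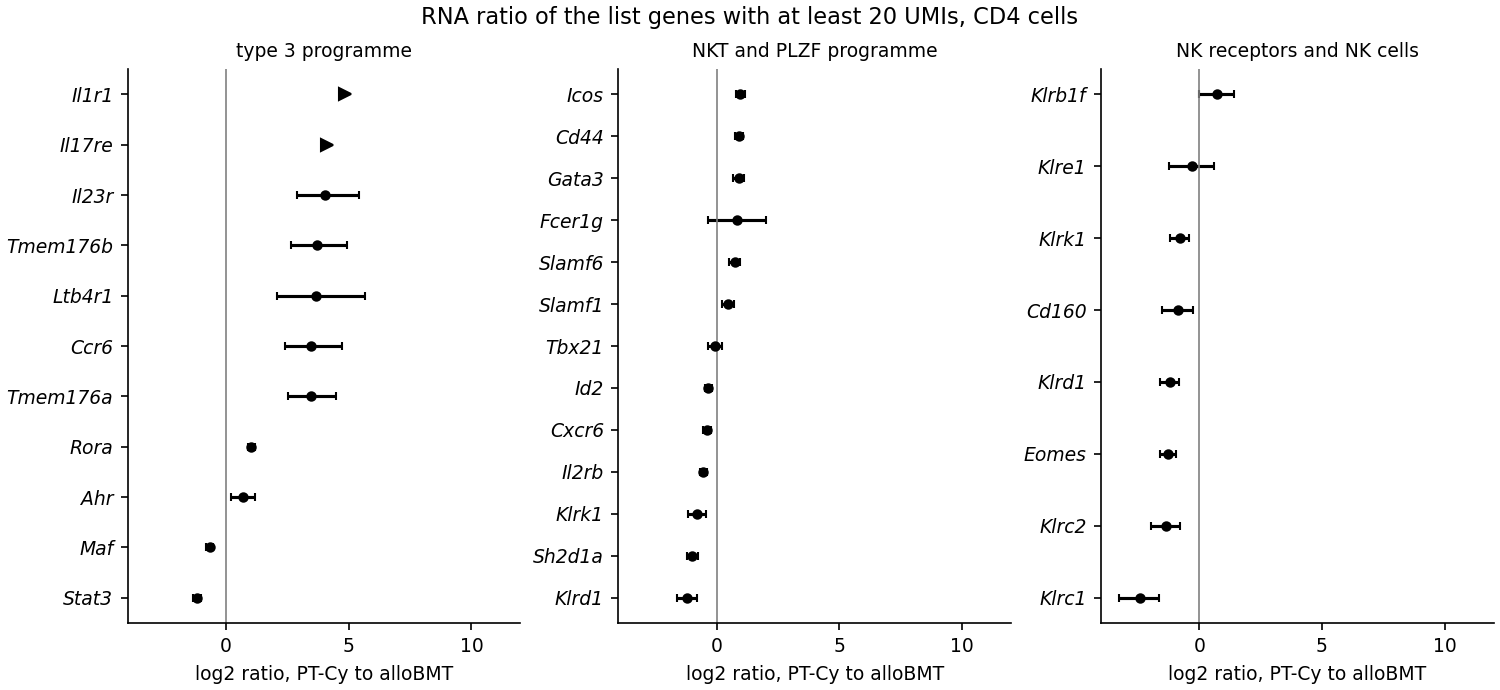
Log2 ratio of PT-Cy to alloBMT RNA (horizontal axis) for list genes with at least 20 UMIs, in the type 3, PLZF and natural killer lists. Points carry 95% intervals, and triangles are bounds from the floor of 3 UMIs, without an interval. In the type 3 list 8 of 11 genes were at least 2-fold higher, while in the other lists 0 were.

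Among PT-Cy cells, the receptors Il1r1 and Il23r were read in a larger share of those that held Il22. Il1r1 had 14 UMIs in 6 of the 9 PT-Cy cells with Il22, against 21 UMIs in 14 of the 236 cells with none of the 4 genes. As shares these are 66.7% (29.9 to 92.5) and 5.93% (3.28 to 9.75), and the intervals did not overlap. Il23r had 12 UMIs in 4 of the 9 cells (44.4%, 13.7 to 78.8), against 31 UMIs in 12 of the 236 cells (5.08%, 2.65 to 8.71). Il17re was in 3 of the 9 cells (33.3%, 7.49 to 70.1) and 13 of the 236 (5.51%, 2.97 to 9.24), with intervals that overlapped. Il17f, an interleukin-17 gene, had 3 UMIs in 2 of the cells with Il22, against 0 in the 236 cells. It was named after its values were seen, as was Ccr6, a chemokine receptor of type 3 cells, with 10 UMIs in 4 of the 9 cells (44.4%, 13.7 to 78.8), against 27 UMIs in 20 of the 236 (8.47%, 5.25 to 12.8). Not all genes of the list followed. Ahr was in 11.1% of the cells with Il22 and 14.8% of the 236, Maf in 66.7% and 68.2%, and Stat3 in 55.6% and 58.9%. Rora, Il17a, Tmem176a, Tmem176b and Ltb4r1 had larger shares in the cells with Il22. The cells with Il22 were deeper, at a median of 5088 UMIs against 3703.5, and these shares were not compared at equal depth.

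Cells with Klrb1c held no Il23r or Il17re UMI and 1 Il1r1 UMI in 18 cells. Cells with Cd163l1 held 5 Il23r UMIs, all in 1 cell, and 2 Il17re UMIs in 1 cell. The 26 cells with Zbtb16 had 8 Il23r UMIs, all in 1 cell that also held Il22, and no Il17re UMI. Median depths were 3703.5 UMIs for cells with none of the 4 genes, 5088 UMIs for cells with Il22, 3006.5 with Cd163l1 and 5488 with Klrb1c.

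**Figure D3:**
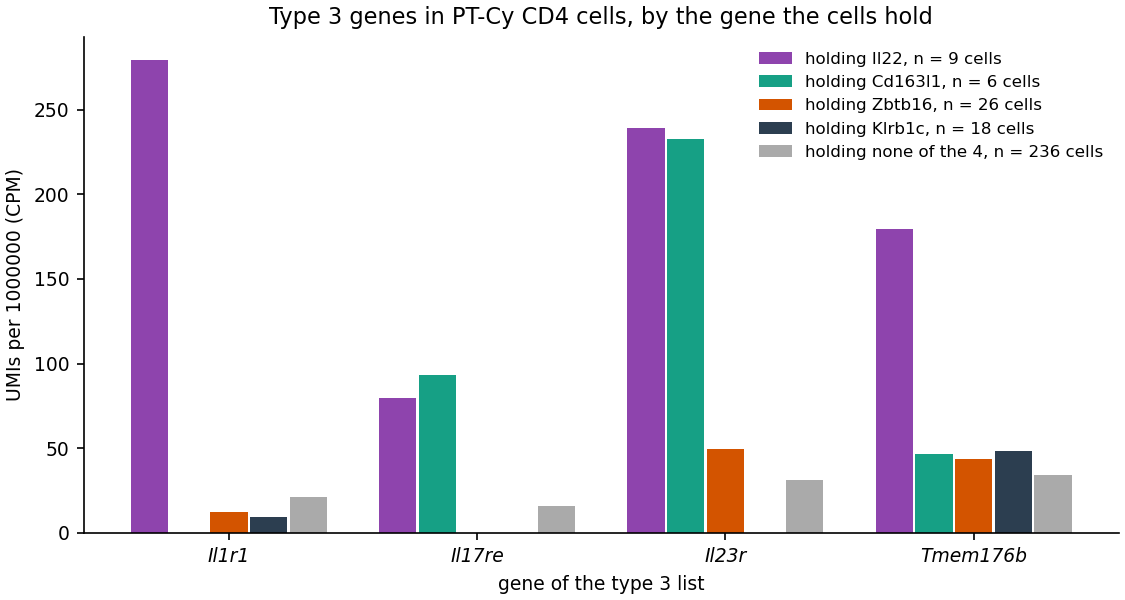
UMIs per 1000000 UMIs (CPM, vertical axis) of the 4 type 3 genes with the largest ratios (horizontal axis) in PT-Cy CD4 cells grouped by which gene they hold; bars are pooled values with no replicate, and a cell holding 2 genes counts in both groups. Il1r1 stood at 279 CPM in the cells with Il22 and 21.1 CPM in cells with none of the 4 genes.

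Klrk1, the activating receptor NKG2D, had a UMI in 7 of the 18 cells with Klrb1c (38.9%, 17.3 to 64.3) and in 31 of the 236 cells with none of the genes (13.1%, 9.10 to 18.1). The intervals overlapped narrowly, and Klrk1 was named after its values were seen. The cells with Klrb1c were deeper, at a median of 5488 UMIs against 3703.5, and Klrk1 was not compared at equal depth. Among the other measured genes of the natural killer list, Klrd1, Klrc1, Klrc2, Klre1 and Cd160 also had larger shares in the cells with Klrb1c. Klrd1 was in 7 of 18 (17.3% to 64.3%) and 26 of 236 (7.32% to 15.7%), and the intervals did not overlap. Eomes, in 4 of 18 and 58 of 236 cells, and Klrb1f, in 1 of 18 and 21 of 236, had smaller ones. In the 26 cells with Zbtb16, the intervals of Klrd1 (20.2% to 59.4%), Klrc1 and Klrc2 also lay above those of the 236. Klrb1f had a smaller share there too. Summed over the list without Klrb1c, cells with Klrb1c had 549 CPM, cells with Zbtb16 had 533 and the 236 had 241. These genes were named after their values were seen, and none was compared at equal depth.

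The genes whose RNA was most like Zbtb16 over the 7 cluster-by-library sets of at least 30 cells were Ybx1 (Pearson r of 0.99), C1qbp, Ccne2, Ncapg and Naxe. Over the 284 single PT-Cy cells they were Lyst (0.40), Pip5k1b, Btbd11, Bach2 and Kcnq5. For Klrb1c they were Hdac9 (0.99), Camp, Heatr5a, Ltf and Thy1 over the sets, and Ifi213 (0.37), Btbd11, Rnh1, Trim12a and Ick over the cells. Camp and Ltf encode neutrophil granule proteins. Klrb1c was at 29.6 CPM in PT-Cy cluster 2, at 7.12 in PT-Cy cluster 4 and at 0.882 or less in the alloBMT clusters. Its correlation over the sets thus rested mainly on PT-Cy cluster 2, where any gene that peaks there scores high. The members were also chosen on the contrast between these libraries. The points share libraries and depth, and Il22 and Cd163l1 had too few UMIs for this comparison.

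Open chromatin was read in the same cells as the RNA, so it is not an independent sample of them. Within 10 kb of the genes lay 50 deposited peaks, 26 at Zbtb16, 4 at Il22, 11 at Cd163l1 and 9 at Klrb1c. ATAC counts are likewise given per 1000000 counts (ATAC CPM). Summed over its peaks, Zbtb16 had 85.1 ATAC CPM in PT-Cy CD4 cells (131 counts), against 43.4 in alloBMT CD4 cells (303 counts), a log2 ratio of 0.97 (0.66 to 1.27). Cd163l1 had 95.5 in PT-Cy and 44.7 in alloBMT CD4 cells, a log2 ratio of 1.09 (0.80 to 1.38). Klrb1c had 48.1 and 31.3, a log2 ratio of 0.62 (0.22 to 1.01), and Il22 had 14.3 and 11.04, at 0.37 (-0.38 to 1.07).

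Among all 16615 genes with at least 20 such counts in CD4 cells, 1.99% were at least 2-fold higher in PT-Cy and 1.17% lower. Of the 4 genes, Cd163l1 was at least 2-fold higher, though at 0.90 with edgeR's TMM scaling it was not, and none was 2-fold lower. In CD8 cells, where 1.07% of genes were at least 2-fold higher and 1.23% lower, none of the 4 passed in either direction: Cd163l1 was at 0.89 (0.69 to 1.10), Klrb1c at 0.51 (0.25 to 0.77), Zbtb16 at -0.17 (-0.41 to 0.06) and Il22 at -0.41 (-1.01 to 0.13). Over the peaks within 10 kb, the intervals of Cd163l1 and Klrb1c thus lay above 0 in both T cell sets, and that of Zbtb16 in CD4 cells. For Klrb1c in CD4 cells the direction depended on the window. Peaks within 2 kb of the gene held 1 PT-Cy and 17 alloBMT counts, a log2 ratio of -1.91 (-7.29 to 0.77), and the peak inside the gene held 0 and 6. The peak 7.475 kb from Klrb1c alone held 40 of its 74 PT-Cy and 140 of its 218 alloBMT CD4 counts. At Il22, the peak 9.008 kb from the gene held 18 of the 22 PT-Cy and 72 of the 77 alloBMT CD4 counts.

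**Figure D4:**
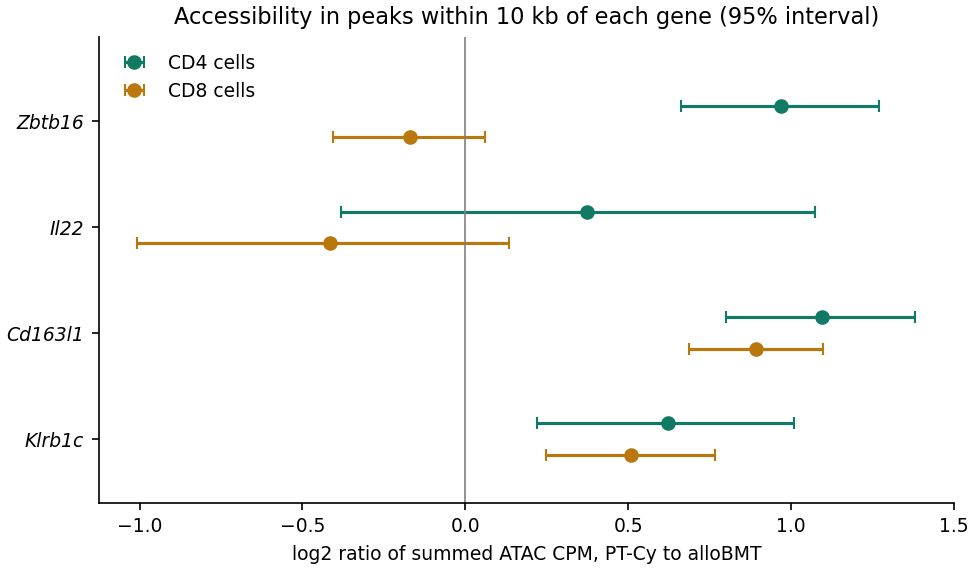
Log2 ratio of PT-Cy to alloBMT summed ATAC CPM (horizontal axis) for the peaks within 10 kb of each gene, in CD4 and CD8 cells; bars are exact 95% intervals covering counting error. With this window Cd163l1 and Klrb1c lay above 0 in both sets, although Klrb1c in CD4 cells was at -1.91 with peaks within 2 kb, and Zbtb16 lay at 0.97 in CD4 cells and -0.17 in CD8 cells.

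By cluster, accessibility at Zbtb16 was 91.0 ATAC CPM in PT-Cy cluster 2 and 68.9 in alloBMT cluster 2, a log2 ratio of 0.40 (-0.17 to 1.01). The other alloBMT CD4 clusters ran from 22.0 in cluster 0 to 60.9 in cluster 1. At Cd163l1 PT-Cy cluster 2 had 103 and alloBMT cluster 2 had 56.0, a log2 ratio of 0.88 (0.27 to 1.54). At Klrb1c they had 53.7 and 23.7, a log2 ratio of 1.18 (0.26 to 2.25). At Il22, PT-Cy cluster 2 had 20 counts and alloBMT cluster 2 had 1. There PT-Cy cluster 2 was at 14.9 ATAC CPM and alloBMT cluster 1 at 14.7. In CD8 cells Cd163l1 ran from 68.1 to 119 in the 3 PT-Cy clusters of at least 30 cells, and from 32.8 to 70.0 in the 8 alloBMT clusters, with an overlap.

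Single peaks were thin. In CD4 cells 19 of the 50 had at least 20 counts; 5 of these were at least 2-fold higher in PT-Cy and 0 lower, where 6.42% of all peaks at that minimum were higher and 10.2% lower. In CD8 cells 27 qualified, 4 were higher and 2 lower, where 5.53% and 9.02% were. The peak at chr7:140192252-140193431, 3.787 kb outside Cd163l1, had 27 PT-Cy and 36 alloBMT counts in CD4 cells, a log2 ratio of 1.77 (0.99 to 2.53), and 1.49 (0.79 to 2.16) in CD8 cells. At the higher-coordinate end of Zbtb16, chr9:48834959-48836588 had 19 PT-Cy and 32 alloBMT counts in CD4 cells, at 1.43 (0.53 to 2.29), and in CD8 cells it was at -0.35, with an interval that included 0. Inside Zbtb16, chr9:48715049-48715445 had 10 counts in each CD4 library, at 2.18 (0.76 to 3.60), and was at -0.29 (-2.27 to 1.24) in CD8 cells. The 2 lower CD8 peaks were also inside Zbtb16. Of these, chr9:48819460-48819863 had 7 PT-Cy and 114 alloBMT counts, at -1.61 (-2.96 to -0.52), and was at 0.74 (-0.75 to 2.05) in CD4 cells. The other, chr9:48814546-48814809, had 2 and 27 CD8 counts, at -1.34 (-4.46 to 0.65).

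RNA and accessibility could be set side by side in the same cells. At Zbtb16 the 26 PT-Cy CD4 cells with its RNA had 250 ATAC CPM (47 counts), against 62.2 in the 258 cells without it (84 counts), a log2 ratio of 2.01 (1.46 to 2.54). Counts at the gene were present in 18 of the 26 cells and 64 of the 258. Within cluster 2 the ratio was 1.95 (1.39 to 2.50), and without the cell with the most S100a9 UMIs it was 1.99. The same split over 14364 genes had a median of -0.02, with 1.63% at least 2-fold higher.

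The alloBMT library gave the same direction: its 12 CD4 cells with Zbtb16 RNA had 189 ATAC CPM at the gene (21 counts), against 41.1 in the 914 without it (282 counts). That is a log2 ratio of 2.20 (1.49 to 2.84), with counts in 9 of 12 and 193 of 914 cells. Over 16339 genes this small group gave a median of 0.06, with 11.9% at least 2-fold higher.

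**Figure D5:**
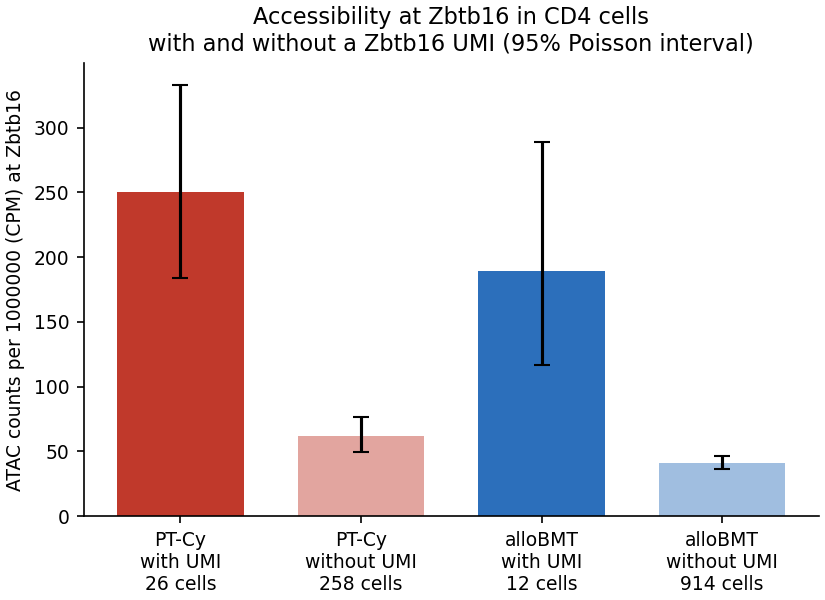
Accessibility at Zbtb16 (ATAC CPM in peaks within 10 kb, vertical axis) in CD4 cells with and without a Zbtb16 UMI, in PT-Cy and in alloBMT; bars are pooled values and lines are 95% Poisson intervals. In PT-Cy the values were 250 and 62.2, and in alloBMT 189 and 41.1.

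In the PT-Cy cells with Zbtb16 RNA, no difference in accessibility was detectable at Cd163l1 (-0.29, -1.17 to 0.48) or Klrb1c (-0.20, -1.47 to 0.87), and no count lay at Il22. Cells with Klrb1c RNA, 8 of which held Zbtb16, had 252 ATAC CPM at Zbtb16, against 68.0 in the others, a log2 ratio of 1.89 (1.29 to 2.46). Their own gene was at 0.92 (-0.11 to 1.83). The 9 cells with Il22 RNA had 4 counts at Il22, against 18 in the 275 others, at 2.10 (0.07 to 3.70). The 6 cells with Cd163l1 RNA did not differ detectably at Cd163l1 (-0.03, -1.93 to 1.36).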

How the data were processed

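The RNA and ATAC tables hold deposited raw counts (whole numbers for each cell and feature), per the file headers. The deposited per-cell table gave clusters, module score columns and mitochondrial percent values, per the file headers; 50 of its columns were not used. Per the submitters' processing notes, Cell Ranger ARC 1.0.1 and MACS2 were used. The build they name, GRCh38, is human, whereas gene names in the files are of mouse; 31.2% of 43774 mouse (GRCm38.p6) gene ends lay in a deposited peak, against 6.16% to 6.89% when moved by 2000 to 200000 bases. How the authors filtered cells or treated doublets is not stated in the labels, and doublets were not called here.

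Counts were summed per library, set and cluster and scaled per 1000000 counts (CPM). Log2 ratios of PT-Cy to alloBMT carry exact conditional Clopper-Pearson 95% intervals, and shares carry exact binomial ones; a share of 0 is also given the limit of 3 cells of the total. Ratios against a count of 0 use a floor of 3 counts per group. A bound from this floor is not a 95% limit and carries no interval. No test was run, since each group is 1 library. Likeness used Pearson correlation of log2(CPM + 10) over sets. Thinning drew 1981 or 2355 UMIs per cell, the 10th and 25th percentiles. The rule for named genes was all 4 members, up to 4 genes per list with the largest ratios, and the 5 most alike genes. The members and lists were chosen with earlier results of these data known. A gene of the type 3 list is not reported here and is left out of its counts. Alternatives used edgeR 4.0.16 TMM and DESeq2 1.42.0 size factors, other minimums, windows and cell subsets. Python 3.11.15 and R 4.3.3 were used.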

Additional observations from a re-analysis of the deposited data

Results flagged for a closer look

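The accessibility ratio at Zbtb16 was 0.97 (log2, PT-Cy to alloBMT) in CD4 cells and -0.17 in CD8 cells, so the ratios had opposite signs, although the CD8 interval (-0.41 to 0.06) included 0. The ratio at Il22 was 0.37 in CD4 cells and -0.41 in CD8 cells. With 1 library per group the difference between the sets was not tested. Only the Zbtb16 interval in CD4 cells (0.66 to 1.27) left out 0, while the other 3 intervals included it.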

How the results depend on the processing

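No paired analysis was possible because each group is 1 library. Of the values recomputed, 121 kept their direction and moved by less than their counting interval or by less than 1.5 times, while 38 moved further and 6 changed sign. Within CD4 cluster 2 the RNA log2 ratio was 0.28 for Zbtb16 and, by the floor of 3 UMIs, at least 0.89 for Klrb1c. There Il22 (15 PT-Cy and 0 alloBMT UMIs) and Cd163l1 (13 and 0) gave no direction, and in cluster 4 RNA gave no ratio. Accessibility ratios in cluster 2 were 0.40 at Zbtb16, 0.88 at Cd163l1 and 1.18 at Klrb1c. At Il22 the ratio there was 2.79 (0.15 to 8.17), on 20 PT-Cy counts and 1 alloBMT count, which is below the floor of 3. In cluster 4, with few counts, the ratios were -0.77 at Zbtb16, -0.21 at Il22, 1.69 at Cd163l1 and -1.21 at Klrb1c. With peaks within 2 kb the ratio was -1.91 at Klrb1c in CD4 cells (1 PT-Cy and 17 alloBMT counts), and peaks overlapping Klrb1c (0 and 6) gave no direction. At Il22 both narrower windows gave 1.86 (-0.48 to 4.07) in CD4 cells, on 4 PT-Cy and 5 alloBMT counts. In CD8 cells they gave 0.24 (-3.01 to 2.52), on 2 and 9 counts. The cause was not tested.

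Thinned to the 10th percentile of UMIs, 2 PT-Cy cells (0.772%) held 2 or more genes, and at the 25th percentile 4 (1.68%). PT-Cy shares at the 10th percentile were 5.79% for Zbtb16 and 3.47% for Klrb1c, and 3.78% for Klrb1c at the 25th. The alloBMT Il22 share was 0% at both depths and when the 5% of cells highest in UMIs were left out, as was Klrb1c at the 10th percentile. RNA genes at least 2-fold higher numbered 310 (181 lower) at the minimum of 100 UMIs, 912 (474) at 20 and 2633 (858) with none; 10 UMIs, chosen after seeing the data, gave 1290 (667). CD4 peaks higher numbered 150 (763 lower), 812 (2077) at a minimum of 50 counts and 3603 (5750) at 20, also chosen after seeing the data. With cells counted once per peak 67 were higher, and with TMM 62 (1222). CD8 peaks higher numbered 361 (1173), 1299 (3226) at 50 and 4565 (7439) at 20, 204 counted once and 235 with TMM. TMM moved the median of all genes or peaks by -0.13 in RNA and -0.20 in CD4 accessibility.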
